A study of Mus musculus with 20 samples.

Results

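The 10 genes described here put peptides on the cell surface for T cells: B2m, Tap1, Tap2, Tapbp, Psmb8 and Psmb9 of the MHC class I pathway, and Cd74, H2-Aa, H2-Ab1 and H2-Eb1 of MHC class II. They were chosen by name, with earlier results of these data known. Each has at least 1 probe set annotated to that symbol alone, and they are 10 of 18194 genes with such a probe set. For a gene with several probe sets, the main value is from the one with the strongest average signal, and the rest serve as a check.

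The study profiled RNA from the flank of mice with 20 Affymetrix Mouse Genome 430 2.0 arrays, and the values are MAS5 signals on a linear scale with arbitrary units. By the labels, 5 control arrays (A to E) came from control tissue of day 0, and 4 arrays (B to E) of day 5, 5 of day 20 and 5 of day 60 came from tissue given Ad-VEGF-A164, an adenovirus that delivers the A164 isoform of the angiogenic growth factor VEGF-A. The array titled day 5 A carried the source name of the control and entered no comparison. The labels give no strain, sex, age, dose, mice per array or empty vector, so the growth factor, the vector itself, the injection and the day of harvest cannot be told apart. They do not say that arrays of a group came from different mice either, and p-values then measure only the spread between these arrays, which may be technical.

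In the class I pathway, the proteasome cuts cytosolic proteins into peptides, and cells exposed to interferon can replace constitutive catalytic subunits of the proteasome with inducible ones such as those encoded by Psmb8 and Psmb9. The Tap1 and Tap2 proteins form the transporter that carries the peptides into the endoplasmic reticulum, tapasin (Tapbp) bridges this transporter to empty class I heavy chains, and beta-2-microglobulin (B2m) is the light chain of the finished complex. Class II molecules are pairs of an alpha chain (H2-Aa) and a beta chain (H2-Ab1, H2-Eb1) that travel with the invariant chain (Cd74) to endosomes, where peptides of engulfed proteins are loaded. Nearly all nucleated cells carry class I, whereas class II is mainly a property of dendritic cells, Langerhans cells, macrophages and B cells.

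Promoters are shown first, since class II genes are known for a shared upstream module of an X1 box, an X2 box and a Y box, which the Rfx, Creb and Nfy proteins bind and to which the coactivator Ciita is recruited. The RefSeq promoter table (GRCm38.p6) held 7 of the 10 genes, all except Cd74, H2-Ab1 and Tap2. The 250 bases before each start were searched on both strands for GCAAC (core of the X1 box), TGACG (core of the X2 box), CCAAT (Y box), TTCNNNGAA (gamma-activated site) and the interferon-stimulated response element, written as GAAA, 2 bases of any kind and GAAA again. The 2 class II promoters are given as the 150 bases before the start, 5′ to 3′ on the strand of the gene, with matches in capitals. H2-Aa lies on the minus strand at chr17:34287824-34287973, and H2-Eb1 on the plus strand at chr17:34305717-34305866.
H2-Aa: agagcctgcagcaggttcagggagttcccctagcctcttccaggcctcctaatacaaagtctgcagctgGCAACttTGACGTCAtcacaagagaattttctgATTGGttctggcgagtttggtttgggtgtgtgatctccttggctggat
H2-Eb1: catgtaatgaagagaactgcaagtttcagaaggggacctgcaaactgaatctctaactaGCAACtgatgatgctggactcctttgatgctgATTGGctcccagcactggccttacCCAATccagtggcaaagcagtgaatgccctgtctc
Both hold GCAAC upstream of ATTGG, which is CCAAT read on the opposite strand. In H2-Aa the GCAAC match began 81 bases before the start and 28 bases separated it from ATTGG, and in H2-Eb1 it began 91 bases before the start with 27 bases between. H2-Aa also holds TGACG on both strands in the overlapping letters TGACGTCA, 2 bases after GCAAC, and H2-Eb1 has no TGACG in the window but a second CCAAT nearer the start. Single cores are common: of 32851 promoters, 33.8% held CCAAT, 29.9% GCAAC, 17.8% TGACG and 1.97% all 3. The order seen in both class II promoters, GCAAC followed by ATTGG within 45 bases, was looked for after these sequences had been read and occurred in 0.798% of promoters.

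The B2m promoter and the interval between Psmb9 and Tap1 are given for the class I side. The former is on the plus strand at chr2:122147537-122147686. Psmb9 and Tap1 lie head to head, so the 225 bases at chr17:34187331-34187555 lie upstream of both and are written on the strand of Tap1.
B2m: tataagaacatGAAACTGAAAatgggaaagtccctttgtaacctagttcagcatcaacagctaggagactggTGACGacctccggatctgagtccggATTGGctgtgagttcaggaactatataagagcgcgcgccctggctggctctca
Psmb9 and Tap1: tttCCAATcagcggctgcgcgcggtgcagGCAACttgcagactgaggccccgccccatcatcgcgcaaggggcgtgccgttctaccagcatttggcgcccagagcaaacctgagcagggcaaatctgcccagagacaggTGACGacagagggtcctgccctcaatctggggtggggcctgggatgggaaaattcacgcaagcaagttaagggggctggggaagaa
B2m was the only one of the 7 promoters with a match to the interferon-stimulated response element, which 2.98% of promoters held, and it also had TGACG and ATTGG. The Psmb9 and Tap1 interval held all 3 class II cores in the order Y box, X1 box and X2 box on the strand of Tap1. Psmb8 had a single match, TTCCCAGAA, to the gamma-activated site (7.02% of promoters) and Tapbp had ATTGG at 2 places. A match of letters is a description of the sequence and not evidence of binding.

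All 4 class II genes rose on days 5 and 20, by 1.75-fold to 2.24-fold and then 2.58-fold to 4.81-fold, and were no longer called on day 60. A gene was called when limma's test on log2(signal + 100), with Benjamini-Hochberg adjustment over all 13595 genes tested, gave an adjusted p under 0.05. Fold changes are on this scale, which understates the change of weak signals, and the comparisons with control share the same 5 control arrays. All 10 genes passed the minimum mean signal of 300.

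Cd74, the invariant chain that guides class II molecules and blocks their groove, had signals of 3701, 4715, 5255, 4557 and 4033 in control arrays A to E. Its signals were 13027, 10091, 7743 and 9951 in day 5 arrays B to E, then 16772, 29525, 15080.2, 18399 and 9111 on day 20 and 6042, 5654, 3319, 4075 and 9987 on day 60. Every array of days 5 and 20 was above every control array, and the day 60 arrays overlapped the controls. The log2 change against control was 1.16 ± 0.29 (SE, adjusted p = 0.00417) on day 5. It was 1.88 ± 0.27 (adjusted p = 3.56e-05) on day 20, and the 0.29 ± 0.27 of day 60 did not pass (adjusted p = 0.631).

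H2-Aa, the alpha chain of the A molecule, gave 10319, 17859, 19583, 18007 and 13093 in the control arrays and 41130.4, 29251, 27215 and 39197 on day 5. On day 20 it reached 62284, 78225, 82456, 59359 and 66577, and on day 60 it was 47533, 40218, 12169, 19136 and 26495. The control, day 5 and day 20 arrays formed 3 ranges that did not overlap, while day 60 spread from control level to above day 5. The mean was 2.19-fold above control on day 5 (log2 1.13 ± 0.30, adjusted p = 0.00659) and 4.49-fold on day 20 (log2 2.17 ± 0.28, adjusted p = 1.06e-05).

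H2-Ab1, the beta chain that pairs with the H2-Aa product, stood at 2277, 2422, 3209, 2733 and 3249 in the controls and at 5061, 4709.7, 4475 and 5309.7 on day 5. Day 20 gave 5830.3, 10657, 8002, 5799 and 6973, and day 60 gave 4191, 3964, 1727, 3625 and 4325. Day 5 values were close together and all above control, day 20 values all lay above day 5, and 4 of the 5 day 60 values were above the highest control while array C was below the lowest. The log2 changes were 0.80 ± 0.22 (adjusted p = 0.00931), 1.37 ± 0.21 (adjusted p = 7.37e-05) and 0.30 ± 0.21 (adjusted p = 0.509) on days 5, 20 and 60.

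H2-Eb1, the beta chain of the E molecule, ran from 2254 (A) through 3065, 3881 and 3051 to 4257 (E) in the controls and had 5309, 7914, 7312 and 8721 on day 5. Its day 20 signals were 12628, 24165, 16934, 15031 and 13061, and its day 60 signals were 8705, 6275, 1880.3, 3763 and 9140.0. As with H2-Aa, the control, day 5 and day 20 arrays did not overlap. It had the highest fold on day 20 among the 10 genes, 4.81-fold (log2 2.27 ± 0.32, adjusted p = 3.19e-05), after 2.19-fold on day 5 (log2 1.13 ± 0.34, adjusted p = 0.0155).

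**Figure D1:**
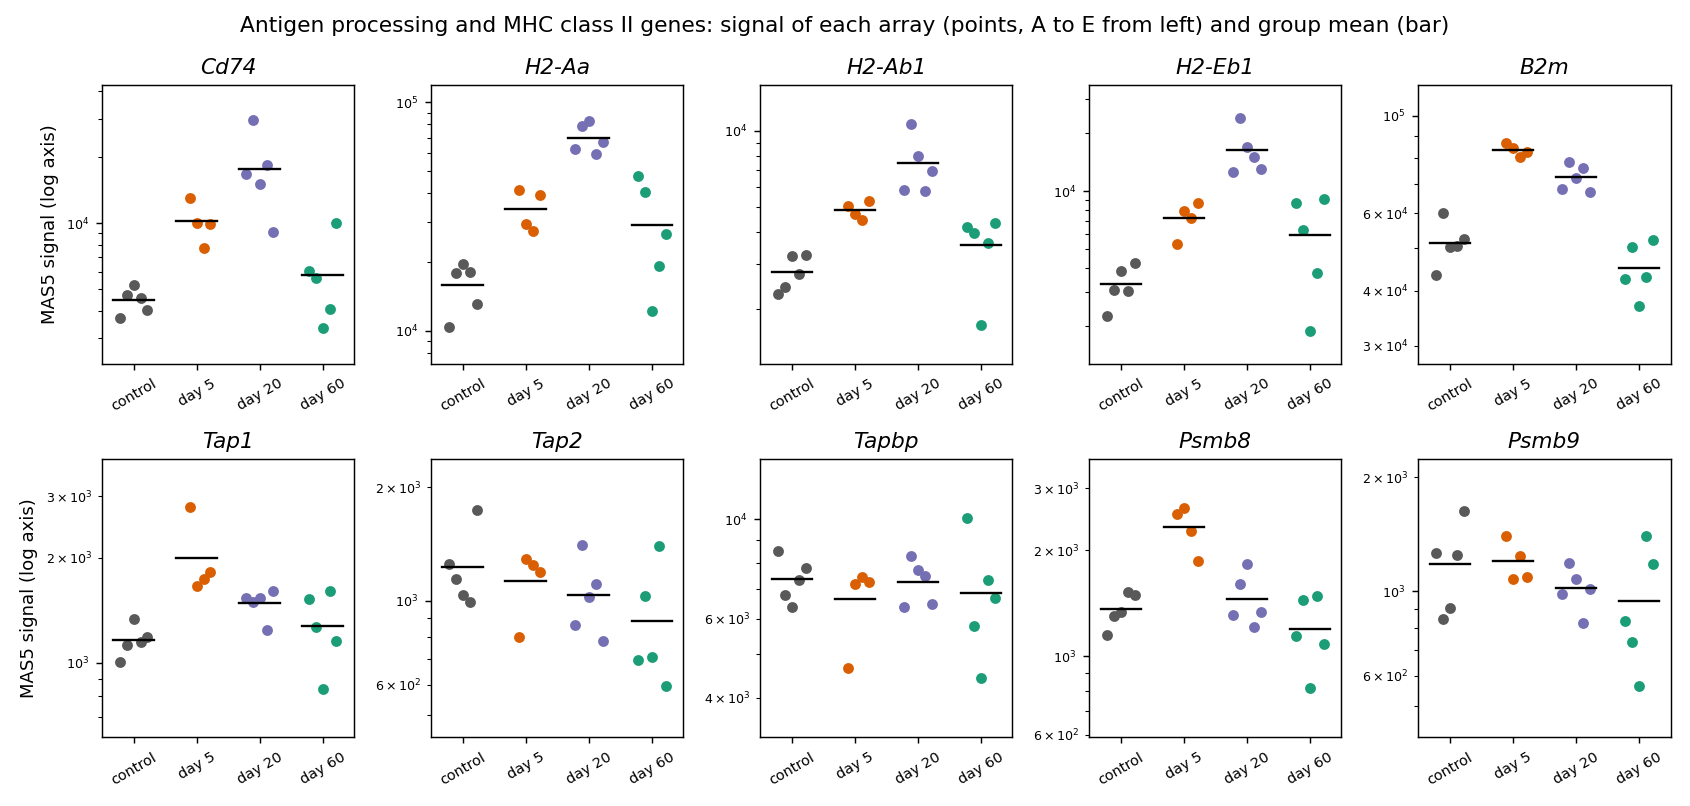
MAS5 signal (log axis) of each of the 10 genes in control, day 5, day 20 and day 60 arrays, with a point per array in order of its letter and a bar at the group mean. The class II genes and B2m stand above all controls on days 5 and 20, whereas Tap2, Tapbp and Psmb9 overlap control on every day.

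Between the days of vector, the fall after day 20 was called for all 4 class II genes and the step from day 5 to day 20 for 1. From day 5 to day 20 the changes were 1.04 ± 0.30 for H2-Aa (adjusted p = 0.0483), 1.13 ± 0.34 for H2-Eb1 (adjusted p = 0.0609), 0.72 ± 0.29 for Cd74 (adjusted p = 0.16) and 0.56 ± 0.22 for H2-Ab1 (adjusted p = 0.158), all on the log2 scale. Only H2-Aa passed, and its call was lost when any single day 5 or day 20 array, control array C, D or E or day 60 array D or E was left out, with adjusted p from 0.0515 to 0.136. All 4 genes fell from day 20 to day 60, by 1.60 for Cd74, 1.41 for H2-Aa, 1.07 for H2-Ab1 and 1.61 for H2-Eb1 on the log2 scale, with adjusted p from 0.000316 to 0.00137. From day 5 to day 60 Cd74 fell by 0.88 ± 0.29 (adjusted p = 0.0322), a call lost without day 5 array B (adjusted p = 0.107), C or E or day 60 array C or D.

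Day 60 depends on array C, which had the lowest signal of its group in 4 of 4 class II genes and 5 of 6 class I genes. Without it, H2-Aa stood 1.03 above control on the log2 scale (adjusted p = 0.0385) and H2-Eb1 1.01 (adjusted p = 0.0445), and both were called, against 0.76 ± 0.28 (adjusted p = 0.183) and 0.66 ± 0.32 (adjusted p = 0.331) with it. Calls over all 13595 genes tested also went from 50 higher and 104 lower to 188 and 177 when array C was left out. The summed signal of 8 pan-leukocyte markers in that array was 11857, against 28634 to 40283 in the other day 60 arrays, and its part in the result was not tested. In the controls, array A was lowest for 4 of 4 class II genes, and on day 20 array B was highest for 3 of 4. How often day 60 array C, control array A and day 20 array B were extreme over all genes is not given. The counts for these arrays therefore cannot be read as particular to the class II or class I genes.

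The class I genes split into 3 that rose on day 5 (B2m, Tap1 and Psmb8) and 3 that were not called on any day (Tap2, Tapbp and Psmb9), and of the first 3 only B2m passed the test on day 20. B2m read 43471, 60081, 50282, 50459 and 52449 in the controls and 86579, 84463, 80566 and 82784 on day 5. It then read 68056, 78559, 72314, 75875 and 66913 on day 20 and 42508, 50337, 37005, 42906 and 52064 on day 60. Its day 5 and day 20 arrays lay above all controls without overlapping each other, and its day 60 arrays were back in or below the control range. The log2 change was 0.71 ± 0.11 on day 5 (adjusted p = 0.000104). Day 20 gave 0.50 ± 0.11 (adjusted p = 0.00171), and from there to day 60 B2m fell by 0.69 ± 0.11 (adjusted p = 0.000131).

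Tap1, the first chain of the peptide transporter, had 1004, 1123, 1331, 1144 and 1186 in the controls and 2790.3, 1658, 1739 and 1816 on day 5. All 4 day 5 arrays were above control and array B stood apart from the rest. The change was 0.71 ± 0.17 on the log2 scale (adjusted p = 0.00319). On days 20 and 60 the means were 1480.2 ± 139 and 1277 ± 307 (SD, n = 5 each) against 1158 ± 118 in the controls, and neither day was called (log2 0.33 ± 0.16, adjusted p = 0.131, and 0.11 ± 0.16, adjusted p = 0.784).

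Psmb8, the inducible subunit that takes the place of Psmb5, had 1154, 1305, 1336, 1526 and 1496 in the controls and 2543, 2643, 2268 and 1873 on day 5. The ranges did not overlap, and the rise was 0.73 ± 0.16 on the log2 scale (adjusted p = 0.00212). It was gone on day 20, at 1315, 1611, 1834, 1210.1 and 1334 (0.08 ± 0.16, adjusted p = 0.718). The drop from day 5 to day 20 was 0.64 ± 0.16 (adjusted p = 0.0265), and it was not called when any of day 5 arrays B, C and D or day 20 arrays A, D and E was left out (adjusted p from 0.0593 to 0.0897). From day 5 to day 60 Psmb8 fell by 0.93 ± 0.16 (adjusted p = 0.000443) and Tap1 by 0.61 ± 0.17 (adjusted p = 0.0134), the latter not called without day 5 array B (0.45, adjusted p = 0.0683).

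Psmb9, the inducible counterpart of Psmb6, had mean signals of 1178 ± 318 in the controls (n = 5), 1203 ± 153 on day 5 (n = 4), 1019 ± 133 on day 20 and 944 ± 341 on day 60 (SD, n = 5 each). Tap2, the second chain of the transporter, went from 1231 ± 299.7 to 1132 ± 224, 1036 ± 241 and 887 ± 330.3 on the same days, and Tapbp from 7351 ± 835 to 6630.5 ± 1315, 7259 ± 811 and 6862 ± 2099. For all 3 genes the arrays overlapped control on every day. The day 5 changes were 0.06 ± 0.21 (adjusted p = 0.864), -0.11 ± 0.22 (adjusted p = 0.749) and -0.16 ± 0.19 (adjusted p = 0.533) on the log2 scale. Tap1 and Psmb9, which share the interval shown above, thus differed in whether they passed the test on day 5, and the difference between the 2 changes was not tested.

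**Figure D2:**
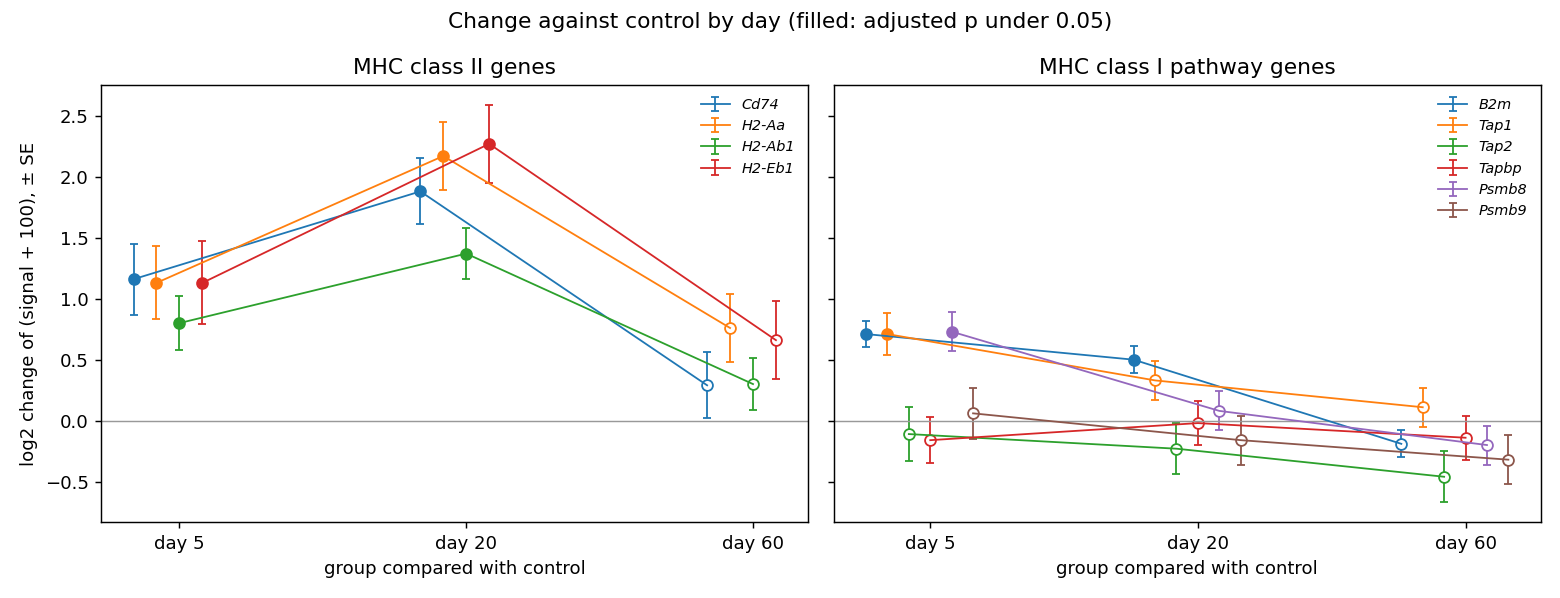
Log2 change of (signal + 100) against control on days 5, 20 and 60 for the 4 class II genes (left) and 6 class I genes (right), with bars of 1 SE and filled points where the adjusted p was under 0.05. Class II changes were highest on day 20 (1.37 to 2.27), while the class I changes that passed were between 0.50 and 0.73.

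Set beside all genes tested, 7 of the 10 genes were called higher on day 5 against a background of 16.8% of genes, and 0 of 10 lower against 17.5%. On day 20 these counts were 5 of 10 higher (background 15.6%) and 0 lower (14.5%). The counts on all days are descriptions, since the 10 genes were chosen with earlier results of these data known. On day 60 limma called 0 higher (background 0.368%) and 0 lower (0.765%), with 1 gene in each direction at an unadjusted p under 0.05 (H2-Aa higher, Tap2 lower). Over all genes tested, 50 were called higher and 104 lower at an adjusted p under 0.05. With each array centred on its 75th percentile these calls were 30 and 107. The share of all genes at an unadjusted p under 0.05 is not given, so H2-Aa and Tap2 have no background beside them. From day 5 to day 20, 1 gene was called higher (3.05% of all genes) and 1 lower (2.25%). From day 20 to day 60, 0 were called higher (11.0%) and 5 lower (11.2%), with none higher at an unadjusted p under 0.05 either. From day 5 to day 60, 0 were called higher (12.2%) and 4 lower (12.2%), again with none higher at an unadjusted p under 0.05. The median log2 change of the 4 class II genes was 1.13, 2.02 and 0.48 on days 5, 20 and 60, that of the 6 class I genes 0.38, 0.03 and -0.20, and that of all genes tested -0.07, -0.06 and 0.01.

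Further probe sets gave the same direction for H2-Aa, H2-Ab1, B2m and Psmb8. Cd74, H2-Eb1, Tap2 and Psmb9 had 1 probe set each and so no such check. The second B2m probe set changed by 0.89 ± 0.18 on day 5 and 0.75 ± 0.17 on day 20, and the second Psmb8 probe set by 1.14 ± 0.24 and 0.29 ± 0.23. For H2-Aa the other 3 probe sets rose by 1.31 to 1.88 on day 20. Their day 5 changes were 0.81 and 1.12, both called, and 0.70 (adjusted p = 0.0655) for the probe set with the lowest signal. For H2-Ab1 the other 2 gave 1.54 and 1.34 on day 5 and 2.49 and 2.09 on day 20, above the 0.80 and 1.37 of its main probe set. The 3 further Tap1 probe sets and the other Tapbp probe set had mean signals under 300 and none was called. Several class II probe sets are of the _x_at or _s_at type, which by design can bind related transcripts, so signal may be shared between class II genes.

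Whether an inducible proteasome subunit rose more than the constitutive one it replaces was asked within each array, as the difference of their log2 signals. Psmb8 minus Psmb5 was 0.61 ± 0.17 (SE) higher on day 5 than in control, with 4 of 4 arrays above all controls. Psmb10, the third inducible subunit, minus Psmb7 was 0.94 ± 0.30 higher, with 3 of 4 arrays above all controls. Psmb9 minus Psmb6 differed by -0.06 ± 0.20. In two-sided exact permutation tests these gave p = 0.0238, 0.0317 and 0.778, and with adjustment over the 9 values computed (3 pairs on 3 days) 0.143, 0.143 and 0.873, so none passed. The smallest p such a test could give was 0.00794. With adjustment over 9 values, a value at that p could not have passed unless others of the 9 were also low. That none passed therefore cannot decide whether a pair on its own changed. Changes of the constitutive subunits themselves were small, at 0.12 ± 0.18 for Psmb5, 0.12 ± 0.14 for Psmb6 and -0.07 ± 0.22 for Psmb7 on day 5, none called. On days 20 and 60 the pair values ranged from -0.32 to 0.75, with unadjusted p of at least 0.0714.

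**Figure D3:**
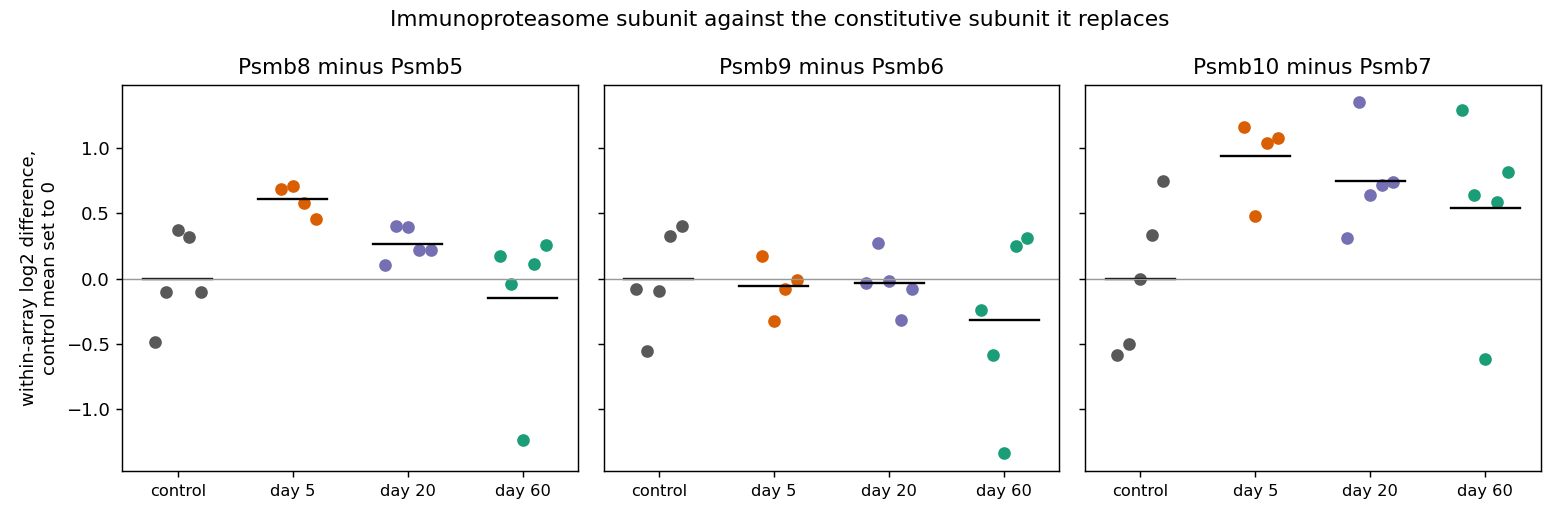
Within-array log2 difference between an inducible proteasome subunit and the constitutive subunit it replaces, with the control mean set to 0, a point per array and a bar at the group mean. The day 5 means are 0.61 for Psmb8 minus Psmb5, -0.06 for Psmb9 minus Psmb6 and 0.94 for Psmb10 minus Psmb7.

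The other genes of both pathways were taken from lists put together with earlier results of these data known. Counts called in these lists, and in the cell and tissue marker lists further below, stand beside the shares of all genes tested. These shares were 16.8% higher and 17.5% lower on day 5, 15.6% and 14.5% on day 20, and 0.368% and 0.765% on day 60. Of 5 tested class I heavy chains (14 listed, 7 with a probe set of their own), 3 rose and 1 fell on day 5. H2-D1 rose by 1.55 ± 0.22 (6415 ± 1478 to 18566 ± 1925, adjusted p = 2.31e-05), H2-K1, named after its value was seen, by 1.07 ± 0.19 (adjusted p = 0.000269) and the formyl-peptide presenter H2-M3 by 1.43 ± 0.23 (adjusted p = 8.74e-05) on the log2 scale. H2-D1 and H2-K1 were both read from _x_at probe sets, so signal may be shared between class I heavy chains too. H2-M3 was still called on day 20 (0.75 ± 0.21, adjusted p = 0.0127). H2-Q10, a secreted class I molecule made mainly by liver, went the other way: its signals were 19306, 1673, 2583, 1705 and 8685 in the controls and 113 to 201 on day 5, 234 to 635 on day 20 and 294 to 1712 on day 60. It was called lower on all 3 days (log2 -4.12 ± 0.58, -2.89 ± 0.55 and -2.39 ± 0.55), and its controls were widely spread. H2-Q2, named after its value was seen and untested at a mean under 300 over all arrays, had signals of 372 to 828 in control, 2.13 to 6.23 on day 5, 4.12 to 93.3 on day 20 and 11.5 to 214 on day 60, with every later array below every control. The day 60 call of H2-Q10 (adjusted p = 0.0415) was lost on leaving out any of 12 arrays, among them control arrays A, C and E and day 60 arrays A, C and E, with adjusted p from 0.0517 to 0.122.

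Of 8 tested genes of class I loading and trimming, 6 rose on day 5 and 2 on day 20. Pdia3, the disulfide isomerase of the loading complex, rose by 1.93 ± 0.28 (adjusted p = 3.5e-05) and 1.29 ± 0.26 (adjusted p = 0.0011) on these days. The chaperones Calr (0.93 ± 0.13 on day 5) and Canx (0.60 ± 0.12 on day 5 and 0.37 ± 0.11 on day 20) rose as well, as did Psmb10 (0.86 ± 0.21 on day 5). The day 20 call of Canx was lost without control array A or D or day 20 array B or C (adjusted p from 0.0502 to 0.0604), and with the probe set of largest spread the day 20 change was -0.005 (adjusted p = 0.988). Nlrc5, the coactivator of class I genes, named after its value was seen, changed by 0.57 ± 0.17 on day 5 (adjusted p = 0.0148). Its day 20 value was -0.28 ± 0.16 (adjusted p = 0.205). Of 14 constitutive proteasome subunits, 1 rose on day 5 (Psma4, 0.42 ± 0.15, adjusted p = 0.0374), a call lost without control array A, C, D or E or day 5 array B, C or D (adjusted p from 0.0511 to 0.0979). None was called on day 20 or 60 by limma, and none had an unadjusted p under 0.05 on those days. With the 3′ to 5′ signal ratio of Actb as a covariate, Psmb7 was called lower on day 20 (-0.51, adjusted p = 0.0428).

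Among 13 tested genes of class II loading and editing, 7 rose on day 5, and 7 rose and 1 fell on day 20. H2-Ea, the alpha chain of the E molecule and partner of H2-Eb1, had 212, 1155, 5752, 5235 and 453 in the controls, 20358, 19322, 13648 and 21296 on day 5 and 15423, 31920.3, 21403, 17193 and 15144 on day 20. Its arrays of both days lay above all controls (log2 3.66 ± 0.71 and 3.73 ± 0.67), although the controls themselves were widely spread. The lysosomal proteases Lgmn and Ctss, the latter a processor of the invariant chain, rose by 2.59 ± 0.28 and 1.97 ± 0.27 on day 5 and were still called on day 20 (0.72 ± 0.26, adjusted p = 0.0417, and 1.43 ± 0.26). The gene that fell on day 20 was the lysosomal protease Ctsd (-0.48 ± 0.17, adjusted p = 0.0372), named after its value was seen. H2-DMb2, a chain of the peptide editor, and H2-Ob, a chain of its inhibitor, were called on day 20 alone: H2-DMb2 changed by 0.39 ± 0.33 (adjusted p = 0.39) and 1.60 ± 0.31 (adjusted p = 0.000688) on the 2 days, and H2-Ob by 0.10 ± 0.27 (adjusted p = 0.813) and 1.51 ± 0.25 (adjusted p = 0.000179). The H2-Ob signals were 192 to 547 in control, 322 to 457 on day 5, 913 to 1374 on day 20 and 182 to 673 on day 60, so only the day 20 arrays stood clear of control.

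Ciita, the coactivator on which class II transcription depends, was not called on any day. Its signals were 544, 267, 441, 517 and 355 in the controls, 395, 300.5, 276 and 501 on day 5, 450.2, 542, 513, 487 and 307 on day 20 and 371, 371, 453, 279 and 328 on day 60, overlapping throughout. The log2 changes were -0.16 ± 0.20, 0.11 ± 0.19 and -0.17 ± 0.19 (adjusted p = 0.578, 0.711 and 0.693), at a signal close to the minimum of 300. In the comparisons with control 1 of the 8 class II regulators was called, Rfxap, a subunit of the Rfx complex, which fell by 0.67 ± 0.18 on day 5 (adjusted p = 0.0071). In the interferon gamma pathway 3 of 9 tested genes rose on day 5 and 2 on day 20. Irf8, a transcription factor of myeloid cells, led with 1.44 ± 0.24 on day 5 and went from a mean signal of 907 ± 174 in control to 1912 ± 339 on day 20 (adjusted p = 0.00212), followed by the kinase Jak1 (0.63 ± 0.17 and 0.64 ± 0.16) and, on day 5, the receptor chain Ifngr1 (0.48 ± 0.13). Ifng itself had signals of 27.1 to 227 over all groups, under the minimum. Of 6 co-stimulation genes, Cd40 rose by 1.34 ± 0.22 on day 5 and 0.87 ± 0.20 on day 20, and Cd274, the ligand of an inhibitory receptor, fell by 0.69 ± 0.18 on day 20.

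The tissue also gained signal of pan-leukocyte markers on days 5 and 20 and of most macrophage markers on day 5. In bulk RNA, more cells of a type cannot be told apart from more RNA per cell. The 8 pan-leukocyte markers, of which 6 rose on day 5 and 4 on day 20, summed to 16354 to 27662 in control, 59084 to 90162 on day 5, 33405 to 79416 on day 20 and 11857 to 40283 on day 60. Ptprc (CD45) changed by 2.17 ± 0.40 and 1.97 ± 0.38 on days 5 and 20, Cd53 by 2.27 ± 0.35 and 1.61 ± 0.33 and Cd52 by 1.93 ± 0.29 and 1.98 ± 0.28. Macrophage markers (13 of 14 tested) were called mostly on day 5, with 10 higher and 1 lower, and on day 20 with 4 higher and 2 lower. The scavenger receptor Msr1 changed by 3.10 ± 0.38 on day 5 and 0.79 ± 0.36 on day 20 (adjusted p = 0.107), Fcgr1 by 2.72 ± 0.31 (3760.3 ± 759.7 against 486 ± 118 in control) and, on day 20, less (1356 ± 706, adjusted p = 0.00384), and Cd68 by 2.36 ± 0.33 and 0.81 ± 0.31 (adjusted p = 0.0541). Lyz2 was above control on day 20 (1.53 ± 0.34), with means of 12471 ± 3907 in control, 58199.6 ± 7649.9 on day 5 and 36924 ± 14874 on day 20. Cd163 fell on day 20 (-1.59 ± 0.50), and Mertk was the 1 macrophage marker called higher on day 60 (0.71 ± 0.14, adjusted p = 0.0194). The call of Cd163 was lost without control array C or day 20 array C (adjusted p = 0.0626 and 0.0503), and that of Mertk without control array A (adjusted p = 0.0578). Cd14, named after its value was seen, fell on both days (-0.82 ± 0.27 and -0.91 ± 0.26). The summed macrophage signal was 57337 to 127539 in control, 223409 to 300399 on day 5, 97319 to 214145 on day 20 and 47026 to 245356 on day 60.

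Of 12 tested dendritic and Langerhans markers (15 measured), 3 rose and 1 fell on day 5, and 5 rose and 1 fell on day 20. Itgax (CD11c) had the same order of days as class II, with 1.24 ± 0.24 on day 5 and 1.96 ± 0.23 on day 20, and Fscn1, an actin bundler of mature dendritic cells that other cells also make, had 1.79 ± 0.23 and 1.68 ± 0.21. Named after their values were seen, Zbtb46 of the same list also rose on both days, by nearly the same amount (0.82 ± 0.20 and 0.81 ± 0.19), and Cd83 (1.45 ± 0.33) and Btla (0.54 ± 0.20) on day 20. Which cells the Zbtb46 signal came from was not tested. Others of the list, also named after their values were seen, had other courses and were not called against control. Clec10a had means of 4803 ± 1899 in control, 7143 ± 745 on day 5 and 3798 ± 1736 on day 20. In the same groups Cd209a had 1105 ± 318, 668 ± 128 and 1626 ± 419, and Batf3 had 531 ± 89.2, 429 ± 72.7 and 443 ± 189. Epcam, found on Langerhans cells and on epithelium, fell by 2.02 ± 0.41 and 2.68 ± 0.38. Langerin (Cd207), named after its value was seen, had means of 626 ± 170.0, 498 ± 90.7, 579 ± 258 and 566 ± 133 in control and on days 5, 20 and 60. The list summed to 35448 to 41554, 63443 to 69674, 52269.9 to 72125 and 30986 to 54329 in these groups. Fscn1 made up much of this sum on days 5 and 20, and without it the sums were 22541 to 30171, 19421 to 23114, 15894 to 25984 and 19569.7 to 33755, overlapping between control and every day. Of the T and NK cell markers, 9 of 12 measured genes, Cd3e and Cd4 among them, had a mean under 300 over all arrays, and the sums were 2776 to 3672, 3113 to 3869, 3016 to 3901 and 2610.0 to 3578. Nkg7, a granule protein of cytotoxic cells that was named after its value was seen and not tested because of its low mean, read 52.5 to 245 in control, 421 to 512 on day 5, 253 to 439 on day 20 and 53.8 to 407 on day 60, with every day 5 and day 20 array above all controls. Of the B cell markers, 4 of 8 (Cd79a, Cd79b, Pax5 and Fcer2a) had a mean under 300 over all arrays and were not tested, and the sums were 4548 to 6572, 4561 to 6628, 5814 to 8118 and 4475 to 6959. Among the untested genes Cd79b, named after its value was seen, read 18.7 to 265 in control, 93.2 to 221 on day 5, 325 to 451 on day 20 and 33.3 to 211 on day 60, with every day 20 array above all others. Against control Cd22 alone was called (0.43 ± 0.16 on day 20, adjusted p = 0.0488, lost on leaving out any of 13 arrays, with adjusted p from 0.051 to 0.142). The part of these cell types in the class II and class I changes was not tested.

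Endothelial markers rose on days 5 and 20 as well, while flank tissue markers went both ways. Of 11 endothelial markers 10 rose on day 5 and 11 on day 20, among them Icam2 (3.19 ± 0.34 and 2.36 ± 0.32), Emcn (3.05 ± 0.25 and 2.84 ± 0.24), Tie1 (2.79 ± 0.32 and 2.05 ± 0.30) and Egfl7 (2.44 ± 0.33 and 2.12 ± 0.31), and their sum went from 13425 to 19840.1 in control to 58404 to 72718 on day 5, 46114 to 75751 on day 20 and 14556 to 26432 on day 60. Of 13 flank tissue markers 3 rose and 4 fell on each of days 5 and 20. Over all genes tested, 16.8% rose and 17.5% fell on day 5, and 15.6% rose and 14.5% fell on day 20. With so few flank markers, their counts are not read as a result about the list. The fat hormones Adipoq (-2.98 ± 0.73 and -4.64 ± 0.69) and Lep (-1.78 ± 0.41 and -2.83 ± 0.39) fell on both days, and the muscle kinase Ckm fell on day 5 (-1.93 ± 0.58, adjusted p = 0.0145, and 0.0691 without day 5 array B). The collagen Col1a1 rose by 2.19 ± 0.29 on day 20. Its day 5 signals, 25088 to 33146, also lay above the 8532 to 13153 of control. Named after their values were seen, Col1a2 and Col3a1 rose and Dcn fell on both days, and Krt5, a basal keratin of epidermis, fell on day 20. The flank list summed to 409482 to 620959 in control, 290804 to 483334 on day 5, 477033 to 576546 on day 20 and 373043 to 664155 on day 60.

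**Figure D4:**
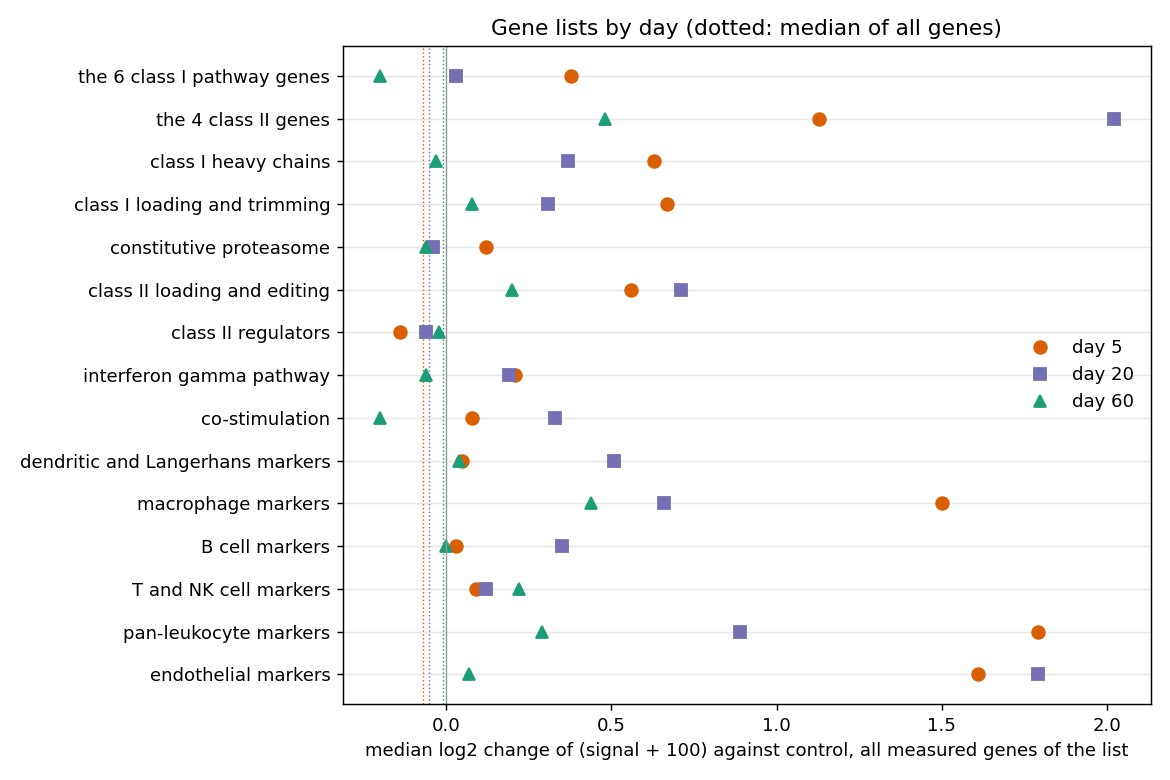
Median log2 change of (signal + 100) against control over all measured genes of each list on days 5, 20 and 60, with dotted lines at the median of all genes. The 4 class II genes have a higher median on day 20 (2.02) than on day 5 (1.13), while the macrophage markers have their higher median on day 5 and 0.66 on day 20.

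Across the 19 assigned arrays the class II genes had higher pairwise correlations than the class I genes. The Pearson r of the 6 class II pairs was 0.86 to 0.96, highest for H2-Ab1 with H2-Eb1, and with the group means removed it was 0.51 to 0.87. The 15 class I pairs had r from -0.05 to 0.78 (median 0.39), and the 24 pairs across both sets from -0.21 to 0.78 (median 0.27). With the group means removed these ranges were -0.04 to 0.57 (median 0.34) and -0.19 to 0.7 (median 0.33). All genes of an array share its RNA and scaling, so these are descriptions without a p. Over the same arrays, the genes closest to the class II mean were Pcdhb20 (r = 0.97), a protocadherin, and Fbn2, Col6a3, Lhfp and Pcolce (0.96 each), of which Fbn2 and Col6a3 encode matrix proteins. They changed by 1.42 to 2.39 on day 20 and by 0.72 to 1.70 on day 5. Itgax had r = 0.90 with the class II mean, Ptprc 0.88, Cd68 0.52 and Ciita 0.19, and with the group means removed 0.48, 0.91, 0.77 and 0.03. The other genes looked at were Zbtb46 (0.66), the macrophage marker Adgre1 (0.66), the endothelial marker Cdh5 (0.77), Irf8 (0.76) and Nlrc5 (-0.03). With the group means removed, they had r of 0.05, 0.81, 0.47, 0.74 and 0.59 in that order. The genes closest to the mean of Tap1, Tap2, Tapbp, Psmb8 and Psmb9 were Papss2 (0.84), Mpg, H6pd and Ptpn18 (0.83 each) and Tspan4 (0.82).

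Array quality differed within groups. The signal ratio of the 3′ to the 5′ probe set of Actb, which rises with RNA degradation, was 4.15 to 9.12 in control, 2.95 to 7.31 on day 5, 2.60 to 7.56 on day 20 and 4.32 to 14.0 on day 60. With this ratio as a covariate Cd74 was no longer called from day 5 to day 60 (-0.66, adjusted p = 0.15), and all other called changes of the 10 genes were kept. The median signal per array was 406 to 569, and no 2 arrays held identical values.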

How the data were processed

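The table deposited by the authors gives each array's MAS5 intensity for each probe set, background corrected and scaled with a factor of 1500, per the labels. The software was GCOS 1.3, per the submitters' processing notes. No further normalization was applied. Of 45101 probe sets, 34958 had 1 gene symbol in the platform annotation, 932 had several and 9211 none here. Gene identifiers served to update symbols, with 34754 probe sets matched to the current table. Each gene was read from whichever of its probe sets had the strongest average over the 19 assigned arrays. A minimum average of 300 left 13595 genes.

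Tests used limma 3.58.1 in R 4.3.3 on log2(signal + 100): a single fit of group means over the 19 arrays, eBayes with a trend, two-sided contrasts, Benjamini-Hochberg adjustment over all tested genes and a threshold of 0.05. The fit was tested on simulated data. Pairs of proteasome subunits were tested by exact permutation over arrays. Promoters came from RefSeq (GRCm38.p6).

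The 10 genes and all lists were chosen with earlier results of these data known. All 10 are named; from each other list the 3 called genes with the largest change in each comparison with control are named, and Ciita, Psmb5, Psmb6 and Psmb7 always. Cell marker lists were described by counts, medians and summed signals, with no list test. Alternatives covered the pseudocount, minimum signal, normalization, trend, array weights, arrays in the fit, choice of probe set, title letter as a block, the Actb ratio, the unassigned array and the omission of each array. The number of arrays limits the precision.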

Additional observations from a re-analysis of the deposited data

Results flagged for a closer look

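Dixon's test at the 95% level was run on the 10 genes in each of the 4 groups, 40 times, and marked 4 values in 3 arrays, where chance alone marks about 1 in 20. In day 5 array B, Tapbp (signal 4667, gap over range 0.914) and Tap2 (801, gap over range 0.835) were far below the other day 5 arrays. In the same array Tap1 was the highest of its group. H2-Ab1 was low in day 60 array C (1727, gap over range 0.805), the array in which 4 of 4 class II genes were lowest. Tap1 was low in day 20 array D (1242, gap over range 0.711).

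The array with the title day 5 A and the source name of the control lay above every control array in 7 of the 10 genes. Its signals were 89078 for B2m (highest control 60081), 1898 for Tap1 (1331), 1784 for Psmb8 (1526), 11514 for Cd74 (5255), 37479 for H2-Aa (19583), 3893 for H2-Ab1 (3249) and 5309 for H2-Eb1 (4257). The share of all genes in which this array lay above every control is not given, so the count cannot be read as particular to these genes. Its group was not settled from these values.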

How the results depend on the processing

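Of 23 called changes of the 10 genes, 17 kept their direction and call in every alternative run, and over 757 alternatives 718 kept both, 39 lost the call and 0 reversed. From day 5 to day 20 the count of genes called higher (1) became 0 with a pseudocount of 1, no minimum signal, no trend, the probe set with the largest spread, the title letter as a replicate block or the unassigned array as control, 2 with a pseudocount of 500, a fit of only both groups or the unassigned array as day 5, and 3 with array weights. The count called lower (1) became 0 with the largest-spread probe set or the block. Arrays of the same letter had a median r of 0.024 (27 pairs, -0.275 to 0.348), against -0.03 for other letters, and 3 arrays correlated best with their own letter. The labels do not say whether letters pair samples, and a weak correlation cannot decide it, since paired arrays can also correlate weakly. With the unassigned array as control B2m on day 20 (0.37, adjusted p = 0.0828), H2-Aa on day 5 (0.91, adjusted p = 0.0548) and Cd74 from day 5 to day 60 (adjusted p = 0.0777) lost their calls, as did 14 changes of other named genes. Tap1 from day 5 to day 60 lost it in a fit of only both groups (adjusted p = 0.0634).

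Leaving out 1 array at a time gave 0 to 2 genes higher on day 60 against control, 0 to 3 higher and 0 to 1 lower from day 5 to day 20, and 2 to 4 lower from day 5 to day 60. Except for Canx, the values that changed sign were not called. Leaving out arrays moved Tap2 on day 5 from -0.17 to 0.038, Tapbp on day 20 from -0.067 to 0.035, on day 60 from -0.29 to 0.001, from day 5 to 20 from -0.012 to 0.21, from day 20 to 60 from -0.27 to 0.018 and from day 5 to 60 from -0.14 to 0.16, Psmb9 on day 5 from -0.044 to 0.18, Ciita on day 20 from -0.016 to 0.22, Psmb5 on day 60 from -0.21 to 0.069, Psmb6 on day 60 from -0.11 to 0.068 and Psmb7 on day 5 from -0.15 to 0.069. For subunit pairs the ranges were -0.27 to 0.13 (Psmb8 minus Psmb5, day 60), -0.20 to 0.04 and -0.17 to 0.07 (Psmb9 minus Psmb6, days 5 and 20), and quantile normalization gave 0.02 and 0.04 for the latter 2. Other signs turned for Tap1 on day 60 (-0.007, unassigned array as control), Tap2 on day 5 (0.005 with array weights, 0.013 with the Actb ratio), Tapbp with the Actb ratio (0.004 on day 5, 0.18 on day 20, -0.20 from day 5 to 60), with 75th percentile centring (0.025 on day 20, -0.019 from day 5 to 60), with the unassigned array as control (0.073 on day 20) and with the block (-0.031 from day 5 to 60), Psmb9 with array weights (-0.032 on day 5, 0.074 from day 20 to 60), and Psmb6 on day 60 (-0.006, -0.009 and -0.021 with quantile normalization, centring and the unassigned array as control). The called rise of Canx on day 20 became -0.005 with its largest-spread probe set, another probe set.

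Counts over all genes moved by more than 1.5 times chiefly on day 60 against control (50 higher, 104 lower): 147 and 149 with array weights, 0 and 2 with only both groups, 0 and 0 with the unassigned array as control, 28 and 96 without a minimum, 39 and 67 with a minimum of 1000, 32 and 77 with the largest-spread probe set, 32 and 72 with the block, and 4 to 327 higher and 17 to 267 lower when single arrays were left out (327 without control array B, 188 without day 60 array C). With the unassigned array as control, day 5 gave 1543 and 1269 (2284 and 2373), day 20 gave 1319 and 1034 (2122 and 1974) and day 20 against day 5 gave 225 and 125 (415 and 306). The last was 934 and 819 with array weights and 582 and 493 with only both groups, and 239 and 179 without day 5 array C. Day 60 against day 5 gave 1100 and 1326 without day 5 array B (1654 and 1658). The causes were not tested.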
